A study of Homo sapiens with 12 samples.

Results

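MiR-221 and miR-222 are the products of 2 neighbouring hairpins on the X chromosome that are frequently raised in pancreatic ductal adenocarcinoma (PDAC). Each hairpin can give a miRNA from its 5′ arm and another from its 3′ arm, so the pair comprises 4 mature miRNAs, miR-221-3p, miR-221-5p, miR-222-3p and miR-222-5p. They were taken by their names in the deposited counts (hsa-mir-221-3p, hsa-mir-221-5p, hsa-mir-222-3p and hsa-mir-222-5p), as 4 of the 1733 miRNAs that were listed in at least 1 library, and all 4 were listed in all 12 libraries. Small RNA was sequenced from AsPC-1 and PANC-1, established human PDAC cell lines derived from ascites and from a primary pancreatic tumor, respectively. For either line there were 3 control samples and 3 that had been transfected with siRNA against MYEOV (siMYEOV), a gene overexpressed in PDAC. The controls are titled WT and described as untreated in the sample labels, whereas the protocol and the methods name a negative-control siRNA. The labels give a harvest at 48 h after transfection, and the methods give an earlier one. The knockdown was transient, and the labels name only 2 siRNAs for knockdown libraries numbered 1 to 3, so these numbers may denote a replicate or an siRNA. MYEOV is not a miRNA, so these libraries carry no measure of how far it was depleted.

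During miRNA maturation, the hairpin is cut from its primary transcript by Drosha and opened by Dicer into a duplex. Usually 1 strand, the guide, is kept by an Argonaute protein, while the other strand is largely degraded. The guide recognizes its targets mainly through the seed, bases 2 to 8 from its 5′ end. For this pair, the 3p arms are the usual guides, and they are known to repress the cell cycle inhibitor CDKN1B (p27) and thereby to favor proliferation in several cancers.

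The mature sequences are shown because the shared seed is what makes the pair a family. RefSeq sequences on GRCh38.p14 were matched for 3 of the 4 miRNAs, and the seed is in capitals.
hsa-miR-221-3p: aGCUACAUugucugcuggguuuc
hsa-miR-222-3p: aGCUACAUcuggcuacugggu
hsa-miR-222-5p: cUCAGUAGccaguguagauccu
MiR-221-3p lies at chrX:45746180-45746202, miR-222-3p at chrX:45747036-45747056 and miR-222-5p at chrX:45747073-45747094, all on the minus strand. The 3p arms are identical over their first 8 bases, and at 11 of the 21 positions compared from the 5′ end. Their seed, GCUACAU, was found in 2 of the 2370 mature miRNA names of the RefSeq table, which are these 2 miRNAs. The seed of miR-222-5p, UCAGUAG, was found in 1 name, that of miR-222-5p itself. Reads of the 3p arms therefore differ beyond the seed and can be assigned to 1 hairpin or the other.

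The hairpins are shown to place the arms, with the mature arms that the RefSeq table gives in capitals.
MIR221: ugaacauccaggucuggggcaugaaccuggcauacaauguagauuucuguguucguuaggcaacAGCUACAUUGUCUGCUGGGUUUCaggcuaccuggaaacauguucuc
MIR222: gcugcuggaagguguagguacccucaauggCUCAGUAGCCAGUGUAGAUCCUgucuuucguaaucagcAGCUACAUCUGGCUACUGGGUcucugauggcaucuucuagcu
On GRCh37, the build the authors mapped to, MIR221 occupies chrX:45605585-45605694 and MIR222 chrX:45606421-45606530, with 726 bp between them. Both are on the minus strand, in the lncRNA gene MIR222HG at chrX:45604638-45629677. They lie in intron 1 of transcript MIR222HG-201, and MIR221 also shares 24 bases with an exon of transcript MIR222HG-203. MIR222 is thus the upstream hairpin in the direction of transcription, and reads from both can come from the same primary transcript.

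The known target CDKN1B illustrates how the shared seed is read. The complement of the seed, ATGTAGC, occurs at 2 positions of the 3′ UTR of transcript CDKN1B-201 (1342 nt, sense strand only), and each is followed by an A. The sites are shown with the seed match in capitals.
Site at UTR position 201: ctctaaaagcgttggATGTAGCa
Site at UTR position 274: tagtttttaccttttATGTAGCa
They lie at chr12:12874147-12874169 and chr12:12874220-12874242 of GRCh37, on the plus strand. Among 6420 protein-coding transcripts with a 3′ UTR of at least this length, ATGTAGC was found in the first 1342 nt in 6.76%, and at 2 or more positions in 0.249%. CDKN1B mRNA was not measured in these libraries.

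The libraries held 3805084 to 7311783 counted reads and listed 1014 to 1144 miRNAs each. A count of 3, which was taken as the detection floor, equals 0.410 to 0.788 RPM (reads per 1000000 counted reads) and covers counting error only. The labels do not say whether the libraries of a group came from separate cultures grown at different times, so p-values measure the spread between these libraries. Replicate 1 of the AsPC-1 control group stood apart, with a chi-square per degree of freedom of 224 and 183 against the other controls of the line, compared with 22.1 between those 2, and the main fold changes and log2 ratio differences of the pair that include it are given with and without it. Of the marker miRNAs, the 5 epithelial ones (the miR-200 family) were all detected in each group and summed to 48678 to 52667 RPM in the AsPC-1 libraries, whereas the PANC-1 libraries held only 212 to 276. The 2 islet markers summed to 46166 to 55891 in the AsPC-1 controls, 42430 to 42773 in AsPC-1 siMYEOV and 15127 to 19196 in PANC-1. The 3 acinar markers reached at most 0.509, and the 6 blood cell markers 563 RPM. The 2 endothelial markers summed to 1584 to 1967 RPM in AsPC-1 and to 1239 to 1506 in the PANC-1 libraries, without overlap. The 4 fibroblast and smooth muscle markers summed to 4.24 to 5.63 RPM in AsPC-1, where miR-214-3p was at 0 in the controls, whereas they summed to 60.2 to 71.4 in PANC-1. The blood marker miR-223-3p was at 0 in 3 of the 4 groups, and miR-216a-5p, miR-216b-5p or miR-217 was at 0 in all groups but PANC-1 siMYEOV. The epithelial, islet, endothelial and fibroblast markers moved with the line, and the islet markers also with the knockdown in AsPC-1. Such separations were common, as the CPM of 82.1% of the single miRNAs tested did not overlap between the control groups of the lines. On knockdown in AsPC-1, 13.7% were lower without overlap. The marker sums were not recomputed without replicate 1 of the AsPC-1 controls. The part of the markers in the results below was not tested.

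MiR-221-3p was by far the most abundant of the 4. As each read covers 1 mature miRNA, levels are given as the percentage of all counted reads in a library, without division by length. In the AsPC-1 controls, miR-221-3p made up 1.74%, 1.79% and 1.64% of the reads (1.72% ± 0.0769, SD, n = 3), which placed it 12th to 15th among all miRNAs. In the PANC-1 controls, it made up 0.980%, 0.946% and 0.885% (0.937% ± 0.0480), at ranks 16 to 19. Each AsPC-1 control library was thus above each PANC-1 control library.

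MiR-222-3p, the guide of the second hairpin, held 0.461%, 0.477% and 0.442% of the reads in the AsPC-1 controls (0.460% ± 0.0178, SD, n = 3), at ranks 39 to 41. In the PANC-1 controls, it held 0.146%, 0.149% and 0.122% (0.139% ± 0.0145), at ranks 72 to 80. The groups did not overlap, and the gap between the lines, taken as a ratio, was wider than for miR-221-3p.

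The 5p arms, the usual passenger strands, were much less abundant. MiR-221-5p held 0.0525%, 0.0579% and 0.0587% of the reads in the AsPC-1 controls (0.0564% ± 0.00335, SD, n = 3, ranks 90 to 95). In the PANC-1 controls, it held 0.0305%, 0.0344% and 0.0332% (0.0327% ± 0.00198, ranks 145 to 154). MiR-222-5p was read only 88, 98 and 64 times in the AsPC-1 controls, and 24, 19 and 19 times in the PANC-1 controls. These counts are above the floor of 3, but they leave a wide counting error for this arm, above all in PANC-1.

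All 4 miRNAs together took 2.24% ± 0.0940 (SD, n = 3) of the reads in the AsPC-1 controls and 1.11% ± 0.0605 in the PANC-1 controls. After knockdown they took 2.20% ± 0.0845 and 0.939% ± 0.0234, respectively. Both 3p arms made up 96.1% to 97.6% of the 4 in every library. The output of the pair was therefore almost entirely that of the miRNAs with the shared seed.

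**Figure D1:**
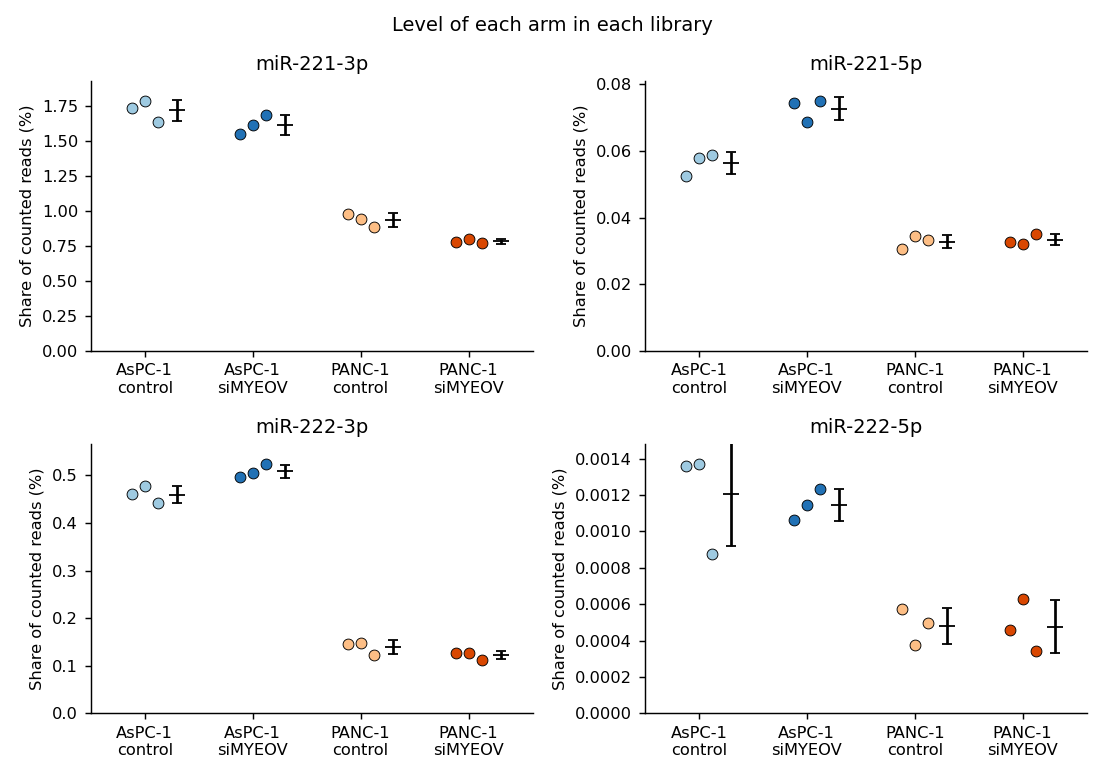
Share of all counted reads (y axis, percent, starting at 0, with another range in each panel) held by each of the 4 miRNAs in the 12 libraries. Each point is 1 library, in replicate order, and the bar beside it is the mean ± SD (n = 3). MiR-221-3p lies between 1.55% and 1.79% in AsPC-1 and between 0.768% and 0.980% in PANC-1, and for all 4 miRNAs each AsPC-1 library lies above each PANC-1 library.

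To compare the lines without knockdown, the PANC-1 controls were tested against the AsPC-1 controls with edgeR's quasi-likelihood method, and p-values were adjusted by Benjamini-Hochberg over the 627 miRNAs tested. In normalised CPM (counts per 1000000 reads after TMM scaling), miR-222-3p fell from 5173 ± 232 (SD, n = 3) in AsPC-1 to 1233 ± 96.6 in PANC-1, a log2 fold change (LFC) of -2.07 (SE 0.099, adjusted p = 4.53e-11) which is a 4.19-fold lower level. MiR-221-3p fell from 19345 ± 918 to 8327 ± 125 CPM (LFC -1.22, SE 0.088, adjusted p = 6.83e-09), a 2.32-fold lower level. The passenger arm miR-221-5p was lower by an LFC of -1.12 (SE 0.11, adjusted p = 1.62e-07), from 635 ± 50.0 to 291 ± 26.0 CPM. MiR-222-5p was lower by -1.66 (SE 0.25, adjusted p = 2.51e-05), from 13.5 ± 3.10 to 4.29 ± 0.825 CPM.

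All 4 miRNAs were thus called lower in PANC-1, and for each the 2 groups did not overlap. The lines differed in most miRNAs. Of all miRNAs tested, 82.8% were called, 46.7% higher and 36.0% lower in PANC-1, and 35.6% were lower without overlap, while the median LFC was 0.27. This split of 293 higher and 226 lower calls turned to 200 and 345 with upper-quartile factors, and it was 335 and 174 with total count scaling. Without replicate 1 of the AsPC-1 controls, the LFCs were -1.26 for miR-221-3p, -1.22 for miR-221-5p, -2.12 for miR-222-3p and -1.62 for miR-222-5p, all called. The size depended on the scaling, as total count scaling raised the median of all miRNAs by 0.34 and upper-quartile scaling shifted it by -0.92, and miR-221-3p was then at -0.88 and -2.14. The direction and the call of each of the 4 were kept under all 9 alternatives of scaling, test, filter and samples, and with each replicate left out in turn.

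**Figure D2:**
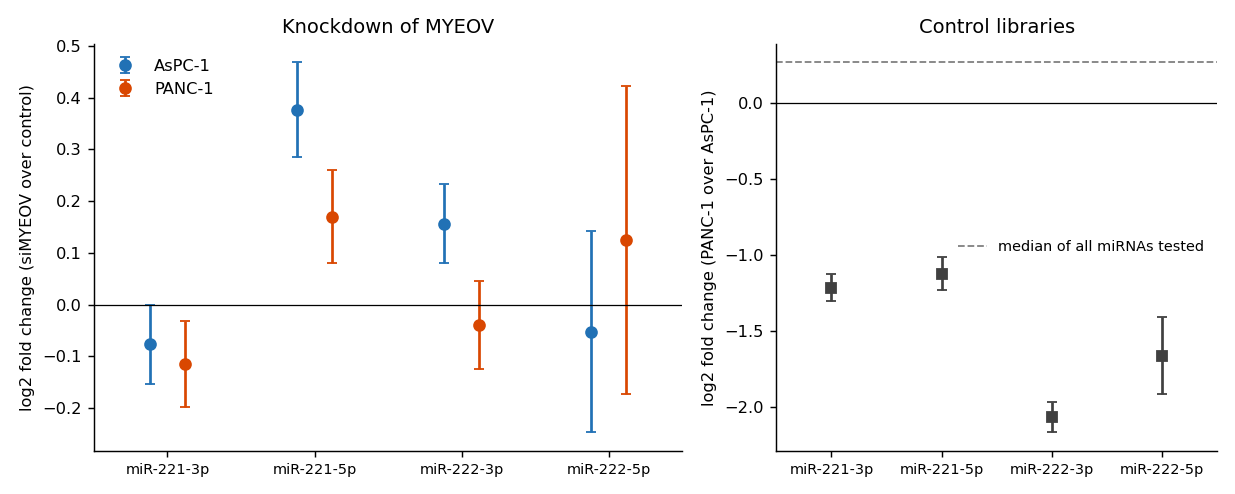
LFC of the 4 miRNAs with MYEOV knockdown in each line (left, siMYEOV over control) and between the control libraries of the lines (right, PANC-1 over AsPC-1). Points are edgeR estimates and bars are ± 1 SE, with 3 libraries per group. The knockdown estimates span -0.11 to 0.38, whereas those between the lines span -2.07 to -1.12, all below the dashed median of all miRNAs (0.27).

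The balance of the guides differed between the lines as well. Within a library, this balance does not depend on scaling. No background over other pairs of miRNAs was computed for it, and 82.8% of all miRNAs tested were called between the lines. MiR-222-3p made up 21.0%, 21.1% and 21.3% of the summed reads of both 3p arms in the AsPC-1 controls, and 13.0%, 13.6% and 12.1% in the PANC-1 controls. There were 3.74 ± 0.0329 (SD, n = 3) reads of miR-221-3p for each read of miR-222-3p in AsPC-1, compared with 6.77 ± 0.441 in PANC-1. The log2 ratio of miR-222-3p to miR-221-3p was lower in PANC-1 (PANC-1 minus AsPC-1 -0.86, two-sided exact permutation test, p = 0.1), and p = 0.1 is the smallest that 3 libraries against 3 can give. Over all 12 libraries, with the line labels permuted within treatment, the difference was -0.93 (exact permutation p = 0.005, the smallest possible, 0.015 after adjustment over the 3 ratios). The values were -0.86 and -0.94 without replicate 1 of the AsPC-1 controls (exact permutation p = 0.1 and 0.005). The test over 12 libraries was chosen after the data had been seen.

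On MYEOV knockdown in AsPC-1, 1 of the 4 miRNAs was called, miR-221-5p, beside 11.4% of the 498 miRNAs tested. The abundant guide miR-221-3p stood at 16597, 18074 and 16734 CPM in the controls and at 15835, 15875 and 17034 CPM in the siMYEOV libraries. The groups overlapped, and the LFC of -0.077 (SE 0.076) was not called (edgeR, adjusted p = 0.555). It was -0.092 without replicate 1 of the controls (edgeR adjusted p = 0.212) and -0.044 without replicate 2. With all 12 libraries in 1 fit, which moved the median of all miRNAs in this comparison by -0.10, it was -0.17 (edgeR adjusted p = 0.225).

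MiR-222-3p in AsPC-1 stood at 4403, 4827 and 4518 CPM in the controls and at 5078, 4950 and 5297 CPM after knockdown. Each siMYEOV library was above each control, but the LFC of 0.16 (SE 0.076) was not called (edgeR, adjusted p = 0.216). The LFC was 0.14 without replicate 1 of the controls (edgeR adjusted p = 0.0678) and 0.059 with all 12 libraries in 1 fit (edgeR adjusted p = 0.775). Such a separation of the groups was seen for 30.5% of the 498 miRNAs tested in this line, and for 16.9% with the siMYEOV libraries higher.

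In the fits of each line with TMM factors, miR-221-5p was the only member of the pair that was called on knockdown, and only in AsPC-1. In AsPC-1, it stood at 502, 586 and 600 CPM in the controls and at 761, 674 and 757 CPM in the siMYEOV libraries. All 3 siMYEOV libraries were above all 3 controls, from a mean of 563 ± 52.9 to 731 ± 48.9 CPM (SD, n = 3). The LFC was 0.38 (SE 0.091, edgeR adjusted p = 0.0138), a 1.30-fold rise. In this line, 11.4% of the miRNAs tested were called and 7.03% were called higher. Without replicate 1 of the controls, the LFC was 0.31 (edgeR adjusted p = 0.00125), and 102 of 505 miRNAs were called, 58 of them higher. The call was lost without siMYEOV replicate 1 (LFC 0.34, edgeR adjusted p = 0.102), when 24 of 519 miRNAs were called. It was also lost without siMYEOV replicate 3 (LFC 0.35, edgeR adjusted p = 0.0768), when 31 of 515 were called. The same held with all 12 libraries in 1 fit (LFC 0.28, edgeR adjusted p = 0.0607) and with replicate numbers as blocks (LFC 0.38, edgeR adjusted p = 0.0777).

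MiR-222-5p in AsPC-1 stood at 13.0, 13.9 and 8.95 CPM in the controls and at 10.9, 11.2 and 12.5 CPM after knockdown. The groups overlapped (LFC -0.053, SE 0.19, edgeR adjusted p = 0.899). The estimate was 0.020 without replicate 1 of the controls, so no direction can be given for this arm.

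In PANC-1, edgeR called none of the 4 miRNAs, whereas 22.0% of the 551 miRNAs tested were called. This background fell to 55 of 572 miRNAs without siMYEOV replicate 3, 68 of 569 without siMYEOV replicate 2 and 82 of 567 without control replicate 2. In this fit, with TMM factors and no replicate block, none of the 4 had an unadjusted p under 0.05, which 35.8% of all miRNAs had. DESeq2 called none of the 4 either, with no adjusted p given for miR-222-5p. MiR-221-3p stood at 9051, 8969 and 8710 CPM in the controls and at 7942, 8388 and 8353 CPM in the siMYEOV libraries. All siMYEOV libraries were below all controls, yet the LFC was only -0.11 (SE 0.083, edgeR adjusted p = 0.332). The groups of 36.7% of the miRNAs tested did not overlap in this line, 17.1% with the siMYEOV libraries lower and 19.6% with them higher. With total count scaling, which moved the median of all miRNAs by -0.15, miR-221-3p was called at -0.26 (adjusted p = 0.0199). On the scale of raw read shares, it stood at 0.777%, 0.803% and 0.768% after knockdown, compared with 0.937% ± 0.0480 (SD, n = 3) in the controls.

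MiR-221-5p in PANC-1 stood at 282, 326 and 327 CPM in the controls and at 333, 335 and 382 CPM after knockdown. The groups did not overlap on this scale, and the LFC of 0.17 (SE 0.090) was not called (edgeR adjusted p = 0.170). It was 0.089 without control replicate 1, 0.10 without siMYEOV replicate 3 and 0.026 with total count scaling, none called. As raw read shares, 0.0326%, 0.0321% and 0.0352% after knockdown overlapped the controls.

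MiR-222-3p in PANC-1 stood at 1347, 1409 and 1203 CPM in the controls and at 1306, 1331 and 1216 CPM after knockdown. The groups overlapped (LFC -0.039, SE 0.084, edgeR adjusted p = 0.782). The sign was not stable, as the LFC was 0.0088 without control replicate 2 and 0.0049 with upper-quartile factors, but -0.12 without control replicate 3 and -0.18 with total count scaling, none called. MiR-222-5p, with 17 to 25 reads in the siMYEOV libraries, had an LFC of 0.12 with an SE of 0.30 (edgeR adjusted p = 0.797). The SE was thus larger than the estimate, which turned to -0.048 without control replicate 2, -0.12 without siMYEOV replicate 2 and -0.021 with total count scaling.

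A line-by-treatment interaction term in 1 edgeR fit of the 12 libraries tested whether the response was unequal. None of the 4 was called (edgeR adjusted p from 0.790 to 0.941), and with TMM factors none had an unadjusted p under 0.05, as 11.4% of all miRNAs had. Only 2 of 650 miRNAs (0.308%) were called. DESeq2 called none of the 4, with an unadjusted p of 0.0236 for miR-222-3p (adjusted p = 0.371). The difference, AsPC-1 minus PANC-1, was 0.11 (SE 0.14) for miR-221-5p, 0.10 (SE 0.13) for miR-222-3p, -0.057 (SE 0.13) for miR-221-3p and -0.27 (SE 0.37) for miR-222-5p. These differences depended on the scaling and, in size, on single libraries, which also turned the sign for the last 2 miRNAs. Leaving out 1 library at a time, the difference ranged from 0.039 to 0.20 for miR-221-5p and from 0.079 to 0.19 for miR-222-3p. That of miR-221-3p turned to 0.17 with total count scaling, to 0.10 with RLE size factors or DESeq2, to 0.019 without AsPC-1 siMYEOV replicate 1 and to 0.018 without PANC-1 siMYEOV replicate 2, so no direction can be given. That of miR-222-5p was -0.045 with total count scaling, -0.11 with RLE size factors and 0.026 without PANC-1 siMYEOV replicate 2. With total count scaling, which moved the median of all miRNAs by 0.23, the differences were 0.34 for miR-221-5p and 0.33 for miR-222-3p (edgeR unadjusted p = 0.0103 and 0.0130, adjusted p = 0.214 for each). With RLE size factors, which moved it by 0.16, they were 0.27 and 0.26 (edgeR unadjusted p = 0.0592 and 0.0401, adjusted p = 0.493 and 0.421). Without replicate 1 of the AsPC-1 controls, the differences were 0.039 for miR-221-5p, 0.079 for miR-222-3p, -0.072 for miR-221-3p and -0.20 for miR-222-5p, none called, while 25 of 665 miRNAs were called. MiR-221-5p was thus called in AsPC-1 and not in PANC-1, without a called difference between the lines.

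Ordered by raw read shares, both guides were highest in the AsPC-1 groups and lowest in PANC-1 siMYEOV. Neighbouring groups overlapped for miR-221-3p in AsPC-1 (1.64% to 1.79% in the controls and 1.55% to 1.69% after knockdown) and for miR-222-3p in PANC-1 (0.122% to 0.149% and 0.112% to 0.128%). The lines did not overlap for either guide in either treatment.

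The arm ratio of miR-221 was read within each library, as the share of miR-221-5p in the summed reads of both arms. In AsPC-1, the share was 2.94%, 3.14% and 3.46% in the controls and 4.58%, 4.07% and 4.26% after knockdown. In PANC-1, it was 3.02%, 3.51% and 3.62% in the controls and 4.03%, 3.84% and 4.38% after knockdown. In both lines, each siMYEOV library was above each control library.

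Expressed as reads, miR-221-3p outnumbered miR-221-5p by 30.6 ± 2.59 to 1 in the AsPC-1 controls (SD, n = 3) and by 22.3 ± 1.38 to 1 after knockdown. In PANC-1, the values were 28.8 ± 2.93 and 23.6 ± 1.60. The log2 ratio of 5p to 3p rose by 0.46 in AsPC-1, and the rise in PANC-1 was 0.28 (two-sided exact permutation tests, p = 0.1 each, the smallest possible with 3 against 3, and 0.2 after adjustment over 2 hairpins and 2 lines). With both lines together and treatment labels permuted within line, a test chosen after the data had been seen, the rise was 0.37 (exact permutation p = 0.005, the smallest possible, 0.015 after adjustment over the 3 ratios). It was higher in 6 of 6 siMYEOV libraries than in every control of the same line. Without replicate 1 of the AsPC-1 controls, the rise was 0.40 in AsPC-1 and the joint rise 0.34 (exact permutation p = 0.1 and 0.005). The difference of the rise between the lines was 0.17 (exact permutation p = 0.545), and 0.11 without that library (exact permutation p = 0.685). This test permuted treatment labels within each line, so a rise shared by both lines widened the permuted differences. It therefore cannot decide whether the rises of the lines were equal.

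This rise was not unusual among hairpins. The arm ratio was computed for the 105 hairpins with both arms tested. The control and siMYEOV groups did not overlap in 32.4% of these hairpins in AsPC-1, and the figure for PANC-1 was 29.5%. The less abundant arm gained share without overlap in 22.9% of them in each line. In both lines at once, it did so in 12.4%, which is 13 hairpins including that of miR-221. The minor arm rose by more than that of miR-221 in 17 hairpins in AsPC-1, compared with 32 in PANC-1. Across all 105, the median change of the minor over the major arm was 0.053 for AsPC-1, compared with 0.12 for PANC-1, and 51 hairpins had a higher mean in both lines.

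**Figure D3:**
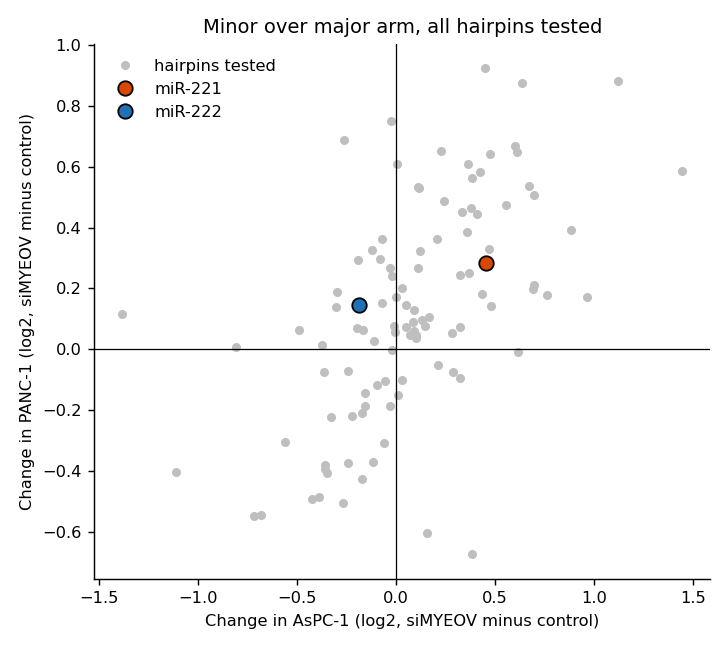
Change of the log2 ratio of the less abundant to the more abundant arm with MYEOV knockdown in AsPC-1 (x axis) and PANC-1 (y axis), as differences of group means. Each grey point is 1 of the 105 hairpins with both arms tested, and the colored points are miR-221 (0.46 and 0.28) and miR-222 (-0.19 and 0.14). MiR-221 lies among the hairpins that rose in both lines and is not at the edge of the cloud.

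The arms of miR-222 were far more unequal than those of miR-221. MiR-222-5p made up 0.295%, 0.286% and 0.198% of the reads of its hairpin in the AsPC-1 controls and 0.213%, 0.226% and 0.235% after knockdown. In PANC-1, it made up 0.391%, 0.253% and 0.407% in the controls and 0.357%, 0.492% and 0.307% after knockdown. The control and siMYEOV libraries overlapped in both lines.

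The log2 ratio of miR-222-5p to miR-222-3p moved by -0.19 in AsPC-1 (exact permutation p = 0.4) and by 0.14 in PANC-1 (exact permutation p = 0.7). The sign in PANC-1 rested on single libraries, as the value was -0.078 without control replicate 2 and -0.048 without siMYEOV replicate 2, and up to 0.29 without siMYEOV replicate 3. In AsPC-1, the value was -0.084 without control replicate 1 (exact permutation p = 0.8) and -0.37 without control replicate 3 (exact permutation p = 0.1, the smallest possible). Between the lines, the ratio was higher in PANC-1 by 0.59 over all 12 libraries, with line labels permuted within treatment (exact permutation p = 0.015, 0.0225 after adjustment over the 3 ratios), and by 0.64 without replicate 1 of the AsPC-1 controls (exact permutation p = 0.015). Among the controls alone the difference was 0.42 (exact permutation p = 0.3), and these groups overlapped. Differences of the arm ratio between the lines were common, as the control groups did not overlap in 48.6% of the 105 hairpins with both arms tested, and 48 of them had a larger absolute difference than miR-222 (0.45 there, with 0.5 added to each count). For miR-222, it was 0.53 without AsPC-1 control replicate 1 (exact permutation p = 0.3), and leaving out 1 control library took it from 0.24 (without AsPC-1 control replicate 3) to 0.64 (without PANC-1 control replicate 2). The difference over 12 libraries rests on 62 and 60 reads of miR-222-5p in all in the PANC-1 control and siMYEOV groups, against 250 and 199 in AsPC-1. The log2 arm ratio of miR-221 was higher in PANC-1 by 0.091 in the controls (-4.84 and -4.93 in AsPC-1, exact permutation p = 0.4), and by 0.033 without AsPC-1 control replicate 1. After knockdown it was -4.56 in PANC-1 and -4.48 in AsPC-1, so the signs were opposite, and the difference over the 12 libraries was 0.0054 (exact permutation p = 0.945), or -0.023 without that library.

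**Figure D4:**
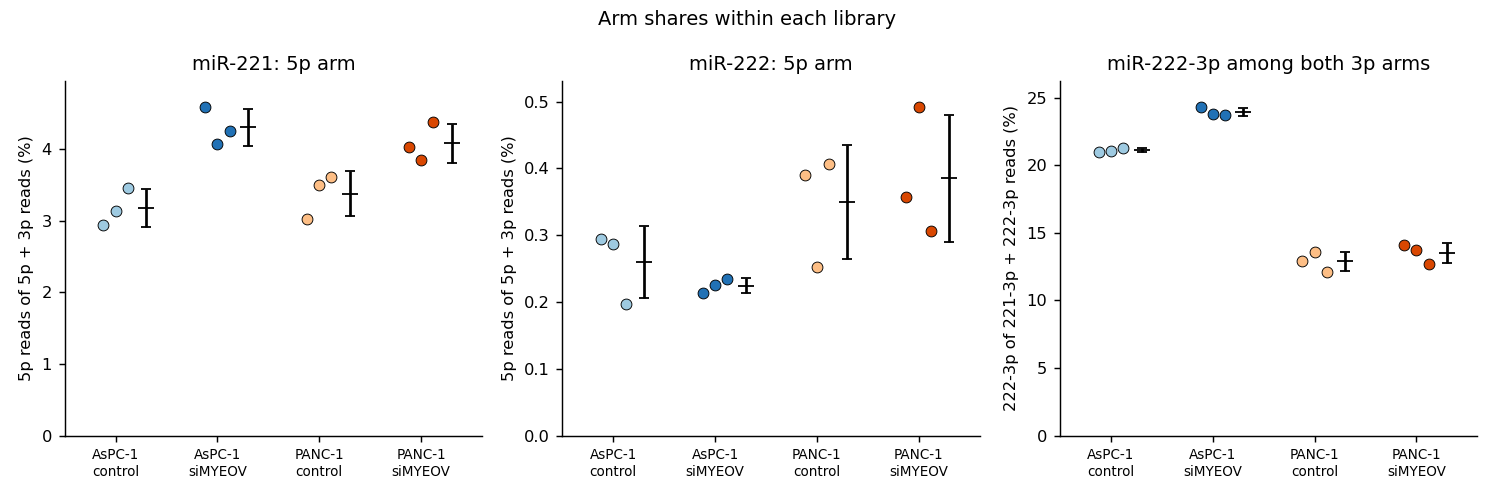
Shares within each library (y axes, percent, starting at 0): miR-221-5p among the reads of both miR-221 arms (left), miR-222-5p among those of both miR-222 arms (middle), and miR-222-3p among those of both 3p arms (right). Each point is 1 library and bars are the mean ± SD (n = 3). The miR-221-5p share is 2.94% to 3.62% in the controls and 3.84% to 4.58% in the siMYEOV libraries, while the miR-222-3p share is 21.0% to 24.3% in AsPC-1, above the 12.1% to 14.1% of PANC-1.

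The balance of the guides was also compared between knockdown and control, again without a background over other pairs of miRNAs. Of the single miRNAs tested in AsPC-1, 30.5% had groups that did not overlap in CPM. In AsPC-1, miR-222-3p made up 24.3%, 23.8% and 23.7% of the summed 3p reads in the siMYEOV libraries, each above all controls (21.1% ± 0.147, SD, n = 3). In PANC-1, it made up 14.1%, 13.7% and 12.7%, which overlapped the controls (12.9% ± 0.725). The log2 ratio of miR-222-3p to miR-221-3p was higher by 0.23 after knockdown in AsPC-1 (exact permutation p = 0.1, the smallest possible, 0.15 after adjustment over the 3 ratios), and the change of 0.078 in PANC-1 was within the spread (exact permutation p = 0.4, adjusted 0.6). Leaving out 1 library took the PANC-1 value from 0.029 (without control replicate 3) to 0.13 (without siMYEOV replicate 3), and it was 0.040 without siMYEOV replicate 1 and 0.12 without control replicate 2. Both lines together, in the test chosen after the data had been seen, gave 0.16 (exact permutation p = 0.02, 0.03 after adjustment over the 3 ratios). Without replicate 1 of the AsPC-1 controls, the change was 0.23 in AsPC-1 and 0.15 for both lines together (exact permutation p = 0.1 and 0.03). The difference between the lines was 0.16 (exact permutation p = 0.25), and 0.15 without that library (exact permutation p = 0.265). Treatment labels were again permuted within each line, so this test cannot decide whether the changes of the lines were equal.

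To place the pair among other miRNAs, profiles over the 12 libraries were compared as log2 CPM, each centred on its own mean, by the root mean square difference among 413 miRNAs tested in both lines. Nearest to miR-221-3p were miR-335-3p (0.0761), miR-26b-5p (0.0994), miR-107 (0.109), miR-941 (0.128) and miR-183-5p (0.134). Of the pair, miR-221-5p came at rank 17, miR-222-5p at rank 35 and miR-222-3p at rank 120. Nearest to miR-222-3p were miR-30b-3p (0.187), miR-378c (0.198), miR-92a-3p (0.201), let-7i-5p (0.204) and miR-140-3p (0.208), while miR-222-5p, miR-221-3p and miR-221-5p came at ranks 46, 52 and 56. The 12 libraries fall into 2 lines, and the mean difference between the lines, PANC-1 minus AsPC-1, is part of each profile. It was -1.33 for miR-221-3p, -1.32 for miR-221-5p, -2.26 for miR-222-3p and -1.59 for miR-222-5p in this scaling.

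Other miRNAs known to be raised in PDAC were set beside the pair. Of a list of 24, 23 were tested, and miR-205-5p was not. In AsPC-1, 1 was called higher and 4 lower on knockdown (7.03% and 4.42% of all miRNAs, a split that turned with all 12 libraries in 1 fit). The other 18 were not called, and the median LFC was -0.031 compared with -0.0047 over all miRNAs. The miRNAs called lower were miR-17-5p (LFC -0.46), miR-93-5p (-0.40) and miR-106b-5p (-0.32), which belong to the miR-17 seed family, and miR-210-3p (-0.41), a hypoxia-induced miRNA. The miRNA called higher was miR-92a-3p (0.30). In PANC-1, 2 were called higher and 4 lower (12.7% and 9.26% of all, a split that turned with total count scaling). There, 17 were not called, with a median of -0.038 compared with 0.028. The called miRNAs with the largest absolute LFC were miR-17-5p (-0.49), miR-106b-5p (-0.42), miR-93-5p (-0.36) and miR-20a-5p (-0.32), all lower, and those called higher were miR-21-5p (0.30) and miR-27a-3p (0.27). The list does not hold the pair. In the same fits with TMM factors, the guides miR-221-3p and miR-222-3p were not called on knockdown in either line, whereas total count scaling called miR-221-3p in PANC-1. Between the control groups of the lines, 6 of the list were called higher and 12 lower in PANC-1 (46.7% and 36.0% of all, a split that turned with upper-quartile factors), with a median of -0.24, compared with 0.27 over all miRNAs.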

How the data were processed

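Small RNA of 12 samples was sequenced, and groups and replicate numbers were taken from the sample labels. The authors trimmed adapters, mapped the reads to hg19 with Bowtie (version not given in the sources used here), kept perfect matches of 18 to 28 nt, and deposited for each library raw counts per mature miRNA, which cover the most abundant sequence and those sharing its 5′ end. Reads starting at another base are left out, which can affect arm ratios. A miRNA not listed was given a count of 0.

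Counts were tested with edgeR 4.0.16 (R 4.3.3), filterByExpr with a minimum count of 10, TMM factors, the quasi-likelihood F test and Benjamini-Hochberg adjustment over all miRNAs tested (threshold 0.05). CPM are TMM-normalised within each comparison, so the same libraries differ between comparisons (miR-221-3p in the AsPC-1 controls, 17135 and 19345) and CPM are compared only within one. Ratios within a library were tested with two-sided exact permutation tests over libraries. The libraries held 3805084 to 7311783 reads. On simulated counts, an LFC of 0.5 was recovered in 64.6% of changed miRNAs for AsPC-1 (485 tested) and 73.2% for PANC-1 (545 tested), and an LFC of 1 in 93.5% and 96.0%. For the interaction (621 tested), the shares were 34.7% and 72.3%. In each of these simulations, a larger share of the miRNAs was given a change than was called in the data. The spread was drawn from a fitted trend, so an outlying library such as AsPC-1 control replicate 1 was not represented. The shares can therefore overstate the recovery in the data. Sequences came from RefSeq on GRCh38.p14, and gene positions from GENCODE on GRCh37. The miRNAs named are the 4 members, the 5 nearest profiles of each guide, and up to 4 called miRNAs with the largest LFC of a list raised in PDAC, plus miR-92a-3p, miR-21-5p and miR-27a-3p, named after their values were seen, and markers or list members at 0 or not tested. The members, lists and tests were chosen with earlier results of these data known. Alternatives were other scalings, DESeq2 1.42.0, other filters, a joint fit, the replicate block and leaving out each replicate.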

Additional observations from a re-analysis of the deposited data

How the results depend on the processing

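Alternatives that kept all libraries gave 217 results. Of these, 204 kept their direction and, where tested, their side of the threshold, or their count within a factor of 1.5. Part of the 204 could not have changed sides. Exact permutation tests of ratios with 3 libraries against 3 cannot reach the threshold. The replicate block of these ratios cannot either, and it leaves the difference unchanged. Ratios of counts summed over the group were not tested. The 204 therefore overstates how stable the results were. The results that changed follow, and the cause was not tested. For miR-221-5p in AsPC-1, the LFC was 0.28 with all 12 libraries in 1 fit and 0.38 with the replicate block (edgeR adjusted p = 0.0607 and 0.0777), both no longer called. The replicate block gave 29 called miRNAs in AsPC-1 in place of 57. The correlations of same-numbered deviations were -0.28, -0.17 and 0.065 in AsPC-1 and 0.024, 0.063 and 0.097 in PANC-1. They cannot decide whether the replicate numbers pair the libraries. The block changed no other call of the pair. In PANC-1, it gave 153 called miRNAs in place of 121. The unadjusted p of miR-221-5p in PANC-1 was 0.0306 with the block in place of 0.0677 (edgeR, adjusted p = 0.0870 and 0.170). In PANC-1, miR-221-3p was called at -0.26 and miR-222-5p turned to -0.021 with total count scaling, miR-222-3p turned to 0.0049 with upper-quartile factors, and 67 miRNAs were called with all 12 libraries in 1 fit in place of 121. With at least 10 counts in every library, 303 miRNAs were called between the lines in place of 519, as fewer were tested. The interaction of miR-221-3p turned to 0.10 with RLE size factors, 0.17 with total count scaling and 0.10 with DESeq2, and 4 miRNAs were called with upper-quartile factors and 10 without a filter in place of 2. Total count scaling gave 26 higher and 117 lower calls in PANC-1 in place of 70 and 51, upper-quartile factors gave 65 and 29, and 1 fit over all libraries gave 25 and 45 in AsPC-1 in place of 35 and 22.

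Leaving out 1 replicate at a time, the LFC of miR-221-5p in AsPC-1 ranged from 0.31 to 0.44, and that of miR-222-5p from -0.22 to 0.064. That of miR-221-3p in AsPC-1 ranged from -0.11 to -0.044. In PANC-1, miR-221-5p ranged from 0.089 to 0.20, miR-222-3p from -0.12 to 0.0088 and miR-222-5p from -0.12 to 0.31. The interaction ranged from -0.080 to 0.019 for miR-221-3p, from -0.44 to 0.026 for miR-222-5p, from 0.039 to 0.20 for miR-221-5p and from 0.079 to 0.19 for miR-222-3p. The arm ratio of miR-221 between the lines over 12 libraries ranged from -0.023 to 0.046. That of miR-222 on knockdown ranged from -0.37 to -0.084 in AsPC-1, from -0.078 to 0.29 in PANC-1 and from -0.13 to 0.053 for both lines together, and between the control groups it ranged from 0.24 to 0.64. The difference between the lines of the change of each ratio, alternatives added after the data had been seen, ranged from 0.11 to 0.25 for the miR-221 arms, from -0.52 to -0.11 for the miR-222 arms and from 0.11 to 0.20 for the guides. The number of called miRNAs ranged from 24 to 102 in AsPC-1 (102 without control replicate 1, 24 without siMYEOV replicate 1), from 55 to 129 in PANC-1 (55 without siMYEOV replicate 3) and from 1 to 25 for the interaction (25 without AsPC-1 control replicate 1). Depth limits miR-222-5p above all, with 17 to 25 reads in each PANC-1 siMYEOV library.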
